A study of Mus musculus with 24 samples.

Results

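Regions of trimethylated lysine 4 of histone H3 (H3K4me3) that were under 1000 bp wide and covered an annotated transcription start site (TSS) of a protein-coding gene on chromosomes 1 to 19 were examined in mouse cerebral cortex. Members were found by width and by overlap with the 5′ ends of transcripts in GENCODE M1 on mm9, and 901 of the 17993 counted regions, lying at 894 genes, met the rule. The libraries were made by single ChIP-Seq, which uses anti-H3K4me3 antibody by itself, or by tandem ChIP-Seq (tChIP-Seq), in which anti-FLAG antibody was used before anti-H3K4me3 antibody. All animals were C57BL/6 and carried histone H2B with a FLAG tag (H2B-FLAG), knocked in at Rosa26 behind a CAG promoter and a floxed polyadenylation signal. In the Rosa H2B-FLAG line, labelled Rosa CAG-H2B-FLAG, the signal had been removed in the germline with Vasa-Cre, so that all cell types carry the tag. The brains were from adults, and the age in weeks and the sex of the Rosa mice were not given in the sources used here. In the Camk2a H2B-FLAG line, labelled Rosa26 CAG-floxed-pA-H2B-FLAG/ CaMKCreERT2, double-heterozygous males received 1 mg of tamoxifen per day for 5 days at 8 weeks of age and were killed a month later, and the tag is restricted to Camk2a-positive neurons and depends on how completely Cre acted. Each group of line and assay had 3 libraries, from lysates of 2 pooled animals, so differences between single animals were not measured. Single ChIP and tChIP libraries of a line carry the same numbers, which may mark 6 shared lysates or only name 12; this was not given in the sources used here. Peaks were called in these same libraries, so the width that chose the members is not independent of their signal, and low counts partly follow from the rule. The study asked whether tChIP-Seq recovers the histone marks of 1 cell type from whole tissue.

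H3K4me3 is deposited at promoters by SET1 and MLL methyltransferase complexes and marks the start sites of genes that are active or poised. These complexes are recruited in part through CXXC domain proteins that bind unmethylated CpG dinucleotides, so promoters in CpG islands tend to carry broad H3K4me3, and promoters with few CpG tend to carry it in narrow stretches and in fewer cell types. In whole tissue, a weak or narrow region may come from a few cells with strong marking or from many cells with little, and bulk counts cannot tell fewer marked cells from less mark per cell.

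The 200 bases before the TSS are shown, on mm9 and 5′ to 3′ on the strand of the gene, for the 3 members that were lowest and the 3 that were highest in tChIP-Seq of Camk2a relative to Rosa H2B-FLAG, and for Pdhb, the member with the highest total count, to let their CpG content be compared. CG dinucleotides are in capitals.
Selenbp1 (chr3:94736842-94737041, plus strand): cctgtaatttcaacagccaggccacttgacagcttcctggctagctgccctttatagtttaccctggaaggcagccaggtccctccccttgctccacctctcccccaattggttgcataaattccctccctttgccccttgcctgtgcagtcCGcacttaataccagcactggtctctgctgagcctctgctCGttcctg
Agmo (chr12:37968429-37968628, plus strand): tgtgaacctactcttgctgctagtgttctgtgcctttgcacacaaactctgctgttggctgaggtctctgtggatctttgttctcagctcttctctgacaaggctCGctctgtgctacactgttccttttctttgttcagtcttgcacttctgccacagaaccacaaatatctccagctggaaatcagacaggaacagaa
Dmpk (chr7:19669090-19669289, plus strand): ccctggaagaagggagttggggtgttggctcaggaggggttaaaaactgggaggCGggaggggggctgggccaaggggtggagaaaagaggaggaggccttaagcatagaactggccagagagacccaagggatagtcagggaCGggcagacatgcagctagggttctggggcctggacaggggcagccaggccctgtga
Vill (chr9:118961696-118961895, plus strand): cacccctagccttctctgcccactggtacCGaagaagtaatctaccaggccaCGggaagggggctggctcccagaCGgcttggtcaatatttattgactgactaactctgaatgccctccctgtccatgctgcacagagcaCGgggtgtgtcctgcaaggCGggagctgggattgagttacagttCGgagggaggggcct
Ap1m2 (chr9:21116778-21116977, minus strand): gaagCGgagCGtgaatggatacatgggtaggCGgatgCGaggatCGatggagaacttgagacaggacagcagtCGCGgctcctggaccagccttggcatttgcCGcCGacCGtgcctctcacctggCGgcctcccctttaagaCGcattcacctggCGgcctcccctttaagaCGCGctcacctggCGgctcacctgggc
Scnn1b (chr7:129008425-129008624, plus strand): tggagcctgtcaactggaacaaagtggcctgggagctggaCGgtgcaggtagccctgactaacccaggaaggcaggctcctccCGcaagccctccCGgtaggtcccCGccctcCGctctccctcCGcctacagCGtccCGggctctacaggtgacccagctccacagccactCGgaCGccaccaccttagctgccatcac
Pdhb (chr14:9005507-9005706, minus strand): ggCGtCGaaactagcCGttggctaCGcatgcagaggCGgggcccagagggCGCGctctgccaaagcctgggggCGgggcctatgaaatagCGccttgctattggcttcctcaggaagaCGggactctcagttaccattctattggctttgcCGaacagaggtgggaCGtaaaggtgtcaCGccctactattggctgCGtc
The sequences of the 3 lowest members held 2, 1 and 2 CG dinucleotides, those of the 3 highest 6, 16 and 10, and that of Pdhb 14. These 6 were picked by fold change and do not stand for the other members. Their observed over expected CpG ratios, from 250 bases before the TSS to 50 after it, were 0.274, 0.171 and 0.234 against 0.295, 0.791 and 0.45. The median ratio was 0.505 over the 239 members lower in Camk2a tChIP-Seq and 0.617 over the 56 higher. TATAAA or its complement was present once before Selenbp1 and in none of the other 6 sequences.

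Members were between 130 and 999 bp wide, with a median of 765 bp, against 2186 bp for the 11640 protein-coding promoter regions of 1000 bp or wider on the same chromosomes. Their counts were low: the total over the 12 libraries ranged from 38 to 2712 with a median of 304, against 3283 in the wider regions, and the median count per library lay between 16 and 41. Library totals ranged from 1457261 to 8644574, so that 1 read was worth between 0.120 and 0.656 CPM (counts scaled to library size with TMM factors). In CPM per kb of region, the median member stood at 6.66 in Rosa single ChIP-Seq, 14.8 in Rosa tChIP-Seq, 7.91 in Camk2a single ChIP-Seq and 12.2 in Camk2a tChIP-Seq, while the median wider region stood between 29.5 and 31.6 in all 4 groups. In the 300 bases around the TSS, from 250 before it to 50 after it, members had a median GC content of 58.3% and an observed over expected CpG ratio of 0.57, against 63.7% and 0.80 in the wider regions, and the ratio was under 0.4 in 26.6% of members and 7.84% of wider regions. Searched on both strands in the 250 bases before the TSS, GGGCGG, the core of SP1 sites, was present in 50.4% of members against 64.7% of wider regions. CCAAT was present in 33.2% against 31.7%, TATAAA in 6.55% against 4.67%, and GAGGAAGT, a PU.1 type letter string, in 2.55% against 2.10%. The first annotated TSS of the gene lay upstream of the region in 29.6% of members against 12.0% of wider regions, and 155 members belonged to a gene with another region of 1000 bp or wider. Another counted region lay under 2000 bp away for 124 of the 901 members and for 559 of the 11640 wider regions. Whether such members are parts of a split peak was not tested. Among them were Emilin1 and Vwde at 3 bp, Mrpl10 at 13 bp and Pdhb at 32 bp. Others were Nbr1 at 65 bp, Lgals3bp at 66 bp and Tlr4 at 163 bp. Near-identical sequence elsewhere in mm9, at 90% identity or more over 80% of the region, was found for 19 members, whose counts are uncertain.

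The highest totals belonged to promoters of general cell functions, and their levels differed little between the lines. Pdhb, a subunit of pyruvate dehydrogenase, had CPM of 62.3, 58.4 and 64.0 in Rosa single ChIP-Seq, 52.2, 47.1 and 51.8 in Rosa tChIP-Seq, 59.6, 58.0 and 61.1 in Camk2a single ChIP-Seq and 47.2, 52.0 and 46.8 in Camk2a tChIP-Seq. Its log2 fold change (log2FC) of Camk2a over Rosa in tChIP-Seq was -0.05 (SE 0.114, adjusted p = 0.79). The next were Sgta, a co-chaperone, at -0.02 (adjusted p = 0.931), Vrk1, a nuclear kinase, at -0.14 (adjusted p = 0.329), Cog6 of the Golgi, at -0.03 (adjusted p = 0.898), and Mrpl10 of the mitochondrial ribosome, at -0.24 (adjusted p = 0.168). The lowest totals were 38 for the Lgals3bp region at chr11:118263304-118263438, 43 for Gm3248, 58 for Vwde and for Col1a1, and 74 for Gm9312, and none of these differed between the lines in tChIP-Seq at the threshold (adjusted p from 0.0767 for Lgals3bp to 0.998 for Gm3248). The widest members, Exosc2 and Shisa3 at 999 bp and 9130019O22Rik at 998 bp, had log2FC of 0.07, -0.62 and -0.47, and the promoter regions just over the limit, Slc2a9 at 1000 bp, Tmem194 at 1001 bp and Fbxo24 at 1002 bp, had -0.77, -0.27 and -0.08. Of these 6, Shisa3 and Slc2a9 were called, and either call was lost without any 1 of 5 libraries, with adjusted p up to 0.0663 for Shisa3 without Rosa tChIP replicate 1 and 0.0488 for Slc2a9 without Camk2a tChIP replicate 1.

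A larger share of the counts of a library fell in the members after tChIP than after single ChIP. The share was 0.626, 0.616 and 0.624% in the Rosa single ChIP-Seq libraries and 1.12, 1.12 and 1.13% in the Rosa tChIP-Seq libraries. It was 0.688, 0.703 and 0.694% in Camk2a single ChIP-Seq and 0.896, 0.870 and 0.901% in Camk2a tChIP-Seq. The 4 groups did not overlap, in the order Rosa single, Camk2a single, Camk2a tChIP and Rosa tChIP. The assays differed by 0.347 percentage points on average over the lines (exact permutation test within lines, two-sided, p = 0.005, the smallest that its 400 arrangements can give). That test takes the 12 libraries as independent: if the libraries of a number shared a lysate, the exact permutation of the signs of the 6 paired differences gives p = 0.0312, the smallest that 64 arrangements can give. The lines differed by -0.0794 points on average over the assays (exact permutation test within assays, p = 0.11), with Camk2a lower by 0.232 points in tChIP-Seq and higher by 0.0733 points in single ChIP-Seq. Within 1 line or assay, 3 libraries against 3 cannot go below p = 0.10 in the exact test, and each of the 4 differences had that value.

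**Figure D1:**
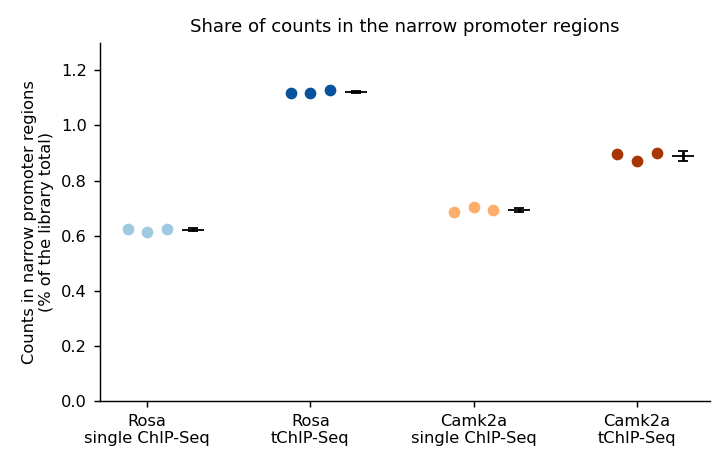
Share of each library's counts that fell in the 901 narrow promoter regions (y axis, percent of the library total) for the 4 groups. Points are libraries and the black marks give the mean ± SD (n = 3). The Rosa tChIP-Seq libraries lie at 1.12 to 1.13% and the Camk2a tChIP-Seq libraries at 0.870 to 0.901%, above all single ChIP-Seq libraries.

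In tChIP-Seq, Camk2a H2B-FLAG chromatin held less H3K4me3 than Rosa H2B-FLAG chromatin at 239 members and more at 56. The lowest members included Selenbp1, Agmo, Gata3 and Scarf1, and the highest Vill, Ap1m2 and Cartpt. Values are relative to the other regions of a library. The background over all 17993 regions was 14.6% lower and 17.0% higher, against 26.5% and 6.22% of members. The median log2FC was -0.27 over the members and -0.0033 over all regions, and the quartiles of the members lay at -0.89 and 0.23. In 288 of the 295 called members the 3 libraries of a line all lay on 1 side of the other line's. Over all regions this held for 3017 of 3062 higher calls and 2566 of 2620 lower calls, or 16.8% and 14.3% of all regions. By the count test of edgeR used throughout, a region was called at an adjusted p under 0.01. Lower calls were also frequent among wider promoter regions with totals between 207 and 452, the quartiles of the members: 43.9% of these 82 were lower and 22.0% higher, with a median of -0.45, against 31.0% and 8.63% of the 452 members in that range.

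The lowest members had only a few reads in Camk2a tChIP-Seq. Selenbp1 (chr3:94736934-94737472), which encodes a selenium-binding protein, had 1, 1 and 2 reads in the Camk2a tChIP-Seq libraries and 10, 7 and 17 in the Rosa tChIP-Seq libraries. In CPM this was 0.328, 0.361 and 0.737 against 5.22, 4.17 and 11.2, while single ChIP-Seq gave 3.33, 4.31 and 3.27 in Rosa and 2.95, 3.10 and 4.24 in Camk2a. The lines did not overlap in tChIP-Seq and overlapped in single ChIP-Seq, and the log2FC were -3.67 (SE 0.574, adjusted p = 8.46e-08) and -0.11 (SE 0.272, adjusted p = 0.855). Agmo (chr12:37968432-37969172), the alkylglycerol monooxygenase that cleaves ether lipids, had 0.656, 0.361 and 0.368 CPM in Camk2a tChIP-Seq, from 2, 1 and 1 reads, and 5.74, 7.16 and 7.22 in Rosa tChIP-Seq. Its single ChIP-Seq values were 6.08, 6.46 and 3.76 in Rosa and 6.40, 5.49 and 4.24 in Camk2a, close to those of Rosa tChIP-Seq, and its log2FC in tChIP-Seq was -3.67 (SE 0.554, adjusted p = 3.18e-08). Dmpk (chr7:19669237-19670085), the kinase of the myotonic dystrophy locus, had 15.7, 22.1 and 19.7 CPM in Rosa tChIP-Seq against 2.30, 1.08 and 2.21 in Camk2a tChIP-Seq, and 5.21, 5.26 and 3.76 and 5.17, 6.44 and 3.99 in single ChIP-Seq of Rosa and Camk2a. Dmpk thus stood above single ChIP-Seq in Rosa tChIP-Seq and below it in Camk2a tChIP-Seq, with a log2FC between the lines of -3.29 (SE 0.314, adjusted p = 2.57e-15). Such fitted values of members with few reads depend on the prior count of the fit.

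The other members among the 10 lowest were Acot11, an acyl-CoA thioesterase, at -3.29 (SE 0.365, adjusted p = 1.47e-12), Gata3, a transcription factor of T lymphocytes, at -3.22 (SE 0.382, adjusted p = 1.75e-11), and Fam198a at -3.20 (SE 0.382, adjusted p = 2.08e-11). Emilin1, a glycoprotein of elastic fibres, had -3.17 (SE 0.613, adjusted p = 1.01e-05). Scarf1, a scavenger receptor of endothelial cells, had -3.08 (SE 0.429, adjusted p = 3.08e-09). Batf, a transcription factor of lymphocytes, had -3.05 (SE 0.533, adjusted p = 1.25e-06), and Mlph, which links melanosomes to myosin, had -3.05 (SE 0.491, adjusted p = 1.76e-07). Each of these had a mean of 1.45 CPM or less in Camk2a tChIP-Seq and of 4.76 CPM or more in Rosa tChIP-Seq. Leaving out 1 library moved 1 of the 10 by over 1.5 times: Mlph had -3.67 without Camk2a tChIP replicate 3.

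Vill, Ap1m2 and Scnn1b, which are known from epithelia, were the highest members. Vill (chr9:118961892-118962643), a villin-like actin-binding protein, had 11.5, 8.30 and 14.0 CPM in Camk2a tChIP-Seq, 4.17, 2.39 and 2.62 in Rosa tChIP-Seq, 3.19, 2.75 and 3.44 in Rosa single ChIP-Seq and 3.20, 4.06 and 5.48 in Camk2a single ChIP-Seq. The Camk2a tChIP-Seq libraries lay above all 9 others, and the log2FC was 1.84 (SE 0.342, adjusted p = 4.83e-06). Ap1m2 (chr9:21116463-21117272), the epithelial subunit of the AP-1 clathrin adaptor, had 12.5, 10.5 and 10.3 CPM in Camk2a tChIP-Seq against 4.17, 2.98 and 3.28 in Rosa tChIP-Seq, a log2FC of 1.65 (SE 0.324, adjusted p = 1.36e-05). Its single ChIP-Seq values overlapped, with 3.04, 2.75 and 4.09 in Rosa and 1.48, 3.34 and 4.24 in Camk2a. Scnn1b (chr7:129008547-129009022), the beta subunit of the epithelial sodium channel, rested on 5, 1 and 4 reads in Rosa tChIP-Seq and 21, 13 and 19 in Camk2a tChIP-Seq, with a log2FC of 1.65 (SE 0.443, adjusted p = 0.0015), and 1 Rosa single ChIP-Seq library had no read there. Camk2a also lay above Rosa in single ChIP-Seq, without overlap, at 1.25 (adjusted p = 0.176, not called). The interaction of line and assay was 0.42 (adjusted p = 0.76). Without Rosa tChIP replicate 2, Scnn1b lost the call in tChIP-Seq (log2FC 1.24, adjusted p = 0.030).

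Cartpt, the precursor of the CART neuropeptides, had 10.3 ± 1.09 CPM (SD, n = 3) in Camk2a tChIP-Seq against 3.77 ± 0.749 in Rosa tChIP-Seq, a log2FC of 1.47 (SE 0.326, adjusted p = 0.000115). Zbtb8b, a BTB zinc finger gene, was the deepest of the 10, with 35.1, 42.9 and 43.1 CPM in Camk2a tChIP-Seq and 14.6, 16.7 and 12.5 in Rosa tChIP-Seq. Its single ChIP-Seq values were 21.1, 20.8 and 22.9 in Rosa and 17.7, 23.4 and 24.2 in Camk2a, between the tChIP-Seq groups, and its log2FC in tChIP-Seq was 1.46 (SE 0.169, adjusted p = 7.14e-12). Atp12a, a proton-potassium pump, had 1.46 (SE 0.233, adjusted p = 1.52e-07), Ankrd60 1.40 (SE 0.283, adjusted p = 2.23e-05), Ccdc108 1.39 (SE 0.300, adjusted p = 7.56e-05) and 1700027A23Rik 1.52 (SE 0.297, adjusted p = 1.21e-05), which became 2.18 without Rosa tChIP replicate 2. Hkdc1, a hexokinase domain gene, had 1.37 (SE 0.258, adjusted p = 6.18e-06) and was also higher in Camk2a single ChIP-Seq, at 0.75 (SE 0.192, adjusted p = 0.0075).

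**Figure D2:**
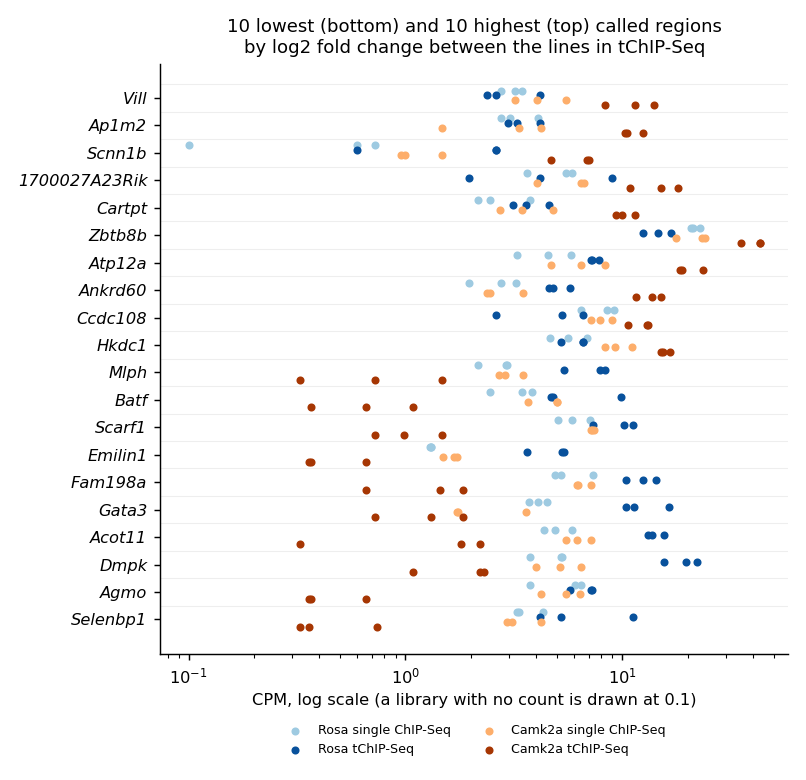
CPM per library (x axis, log scale) for the 10 lowest and 10 highest called members by log2FC between the lines in tChIP-Seq (y axis). Each point is a library, coloured by group, and a library without a read is drawn at 0.1. For the lowest members the Camk2a tChIP-Seq points lie left of the other groups, except that those of Gata3 overlap single ChIP-Seq, at 0.328 to 0.737 CPM for Selenbp1, and for the highest members they lie right of the Rosa tChIP-Seq points.

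Lower calls in Camk2a than in Rosa tChIP-Seq were most frequent where the promoter had few CpG dinucleotides. The members were split into 3 parts of like size by CpG ratio. In the lowest, up to 0.459, 109 of 300 were lower and 16 higher, with a median log2FC of -0.47. In the middle part 67 were lower and 20 higher, and in the highest, from 0.703, 63 of 301 were lower and 20 higher, with medians of -0.24 in both. With 1 library left out, the lower calls were 91 to 105, 57 to 62 and 50 to 64 in these parts. Split by width in the same way, 63, 95 and 81 were lower from the narrowest to the widest. By GC content, 26.4, 27.9 and 25.3% were lower from the lowest to the highest part. Split by total count, 83, 94 and 62 were lower from the lowest to the highest, and the part of depth in the CpG pattern was not tested. Of the narrow regions without any annotated TSS, with a median total count of 201, 10.6% of 2965 were lower and 9.58% higher, with a median of 0.05. Compared with single ChIP-Seq of the same line, Camk2a tChIP-Seq was higher at 85, 124 and 125 members from the lowest to the highest CpG part. It was lower than single ChIP-Seq at 67, 26 and 21. Rosa tChIP-Seq was higher than Rosa single ChIP-Seq at 160, 213 and 191 members of these parts and lower at 1, 4 and 5.

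In single ChIP-Seq, which reads all cells of the tissue, few members differed between the lines, and those that did were higher in Camk2a H2B-FLAG. Of the members, 15 were higher, all without overlap between the lines, or 1.66% against 0.928% of all regions (0.923% without overlap), and 0 were lower, against 1.22% of all regions. At an unadjusted p under 0.05, 184 were higher and 20 lower, and the Wald test of DESeq2 called 0 in either direction. The median log2FC was 0.19, against 0.0012 over all regions. Other regions of low count had a like pattern. Narrow regions without a TSS were higher at 1.38% and lower at 0.0337%, with a median of 0.22. Of all regions with totals between the quartiles of the members, 1.85% were higher and 0.0513% lower, with a median of 0.22. The 82 wider promoter regions in that range had 3.66% higher and 1.22% lower, with a median of 0.18. Whether the pattern belongs to narrow promoters or to low counts was not tested. Chrnb4, the beta 4 subunit of nicotinic acetylcholine receptors, had 0.290, 0.359 and 0.654 CPM in Rosa single ChIP-Seq and 2.46, 0.954 and 2.24 in Camk2a single ChIP-Seq, with a log2FC of 2.10 (SE 0.512, adjusted p = 0.00464). Fam110c had 1.47 (SE 0.368, adjusted p = 0.00633). Both calls were lost without 1 of several libraries, with adjusted p up to 0.0514 for Chrnb4 without Camk2a single replicate 1 and 0.0668 for Fam110c without Rosa single replicate 2. Gm10800 (chr2:98507029-98507527) had 1.94 (SE 0.352, adjusted p = 4.88e-05), but its sequence matches itself at 73.0% of positions when shifted by 251 bases, against a median of 29.9% over shifts, as a tandem repeat would, and its counts are uncertain. The number of higher members was 6 without Rosa single replicate 2 or Camk2a single replicate 2, 8 without Rosa single replicate 3, 7 without Camk2a single replicate 3, and 0 when the libraries were thinned to the mean tChIP-Seq total of 2238368.

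**Figure D3:**
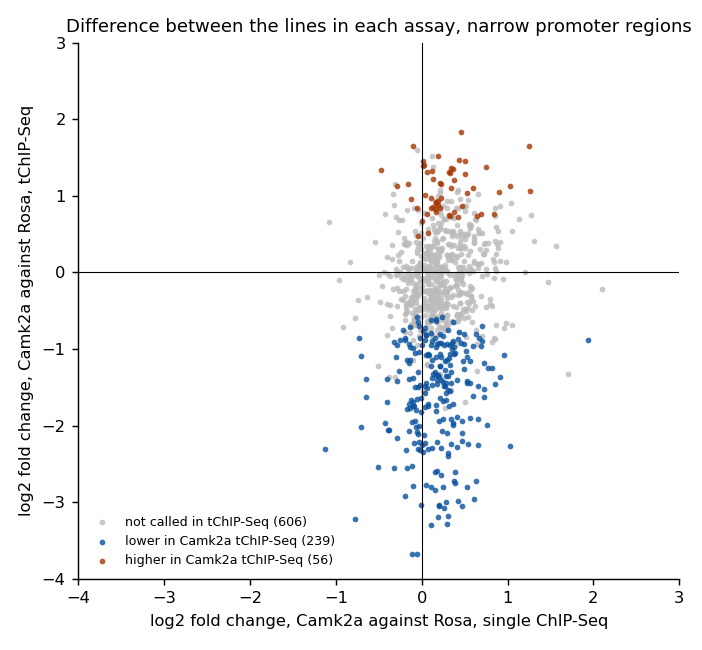
Log2 fold change (log2FC) of Camk2a over Rosa in single ChIP-Seq (x axis) and in tChIP-Seq (y axis) for the 901 members, on equal scales. Blue points are the 239 members lower and brown points the 56 higher in Camk2a tChIP-Seq. The points spread far more along the tChIP-Seq axis (SD 0.96) than along the single ChIP-Seq axis (SD 0.35).

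Most members held a higher share of the signal after tChIP than after single ChIP in the Rosa line. In Rosa H2B-FLAG, 564 members were higher in tChIP-Seq and 10 lower, or 62.6% and 1.11%, against 24.7% and 22.5% of all regions, with a median log2FC of tChIP over single ChIP of 0.97 against -0.002. The libraries did not overlap in 552 of the 574. Over all regions this held for 4224 of 4439 higher calls and 3973 of 4046 lower calls, or 23.5% and 22.1% of all regions. Among narrow regions without a TSS, 38.8% were higher with a median of 0.74. Of the 82 wider promoter regions with totals between the quartiles of the members, 58.5% were higher and 0% lower, with a median of 0.84. In that range members had 72.3% higher and 0% lower, with a median of 1.13. The highest members were Gm10800, with uncertain counts, at 3.69, the Lgals3bp region of 135 bp at 3.41 (SE 0.670, adjusted p = 1.77e-06), and Chrnb4 at 3.21 (SE 0.536, adjusted p = 1.49e-08). Chrnb4 had 4.17, 2.98 and 5.25 CPM in Rosa tChIP-Seq, all above its 0.290, 0.359 and 0.654 in Rosa single ChIP-Seq. The lowest were Ccl27a, a chemokine gene with 11 near-identical copies and uncertain counts, at -1.34, Nbr1, a receptor of selective autophagy, at -1.06 (SE 0.199, adjusted p = 6.07e-07), and Kbtbd7, an adaptor of ubiquitin ligases, at -0.98 (SE 0.216, adjusted p = 2.4e-05). Ccl27a lost the call without Rosa tChIP replicate 1 (adjusted p = 0.075), Rosa tChIP replicate 2 (adjusted p = 0.0206) or Rosa single replicate 3 (adjusted p = 0.0179).

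In Camk2a H2B-FLAG, 334 members were higher and 114 lower after tChIP, or 37.1% and 12.7%, against 25.3% and 22.6% of all regions, and the median was 0.37 against -0.01. The libraries did not overlap in 437 of these 448. Over all regions this held for 4455 of 4559 higher calls and 3955 of 4058 lower calls, or 24.8% and 22.0% of all regions. Other regions of low count had like shares: 35.6% of narrow regions without a TSS were higher, with a median of 0.54, and 40.2% of the 82 wider promoter regions with totals between 207 and 452, with a median of 0.15. With the library number as a block, 331 members were higher and 111 lower, and 563 and 10 in Rosa. Hmcn2, a hemicentin of the extracellular matrix, rose from 0.985, 0.477 and 1.25 CPM to 7.55, 9.38 and 6.63, a log2FC of 3.08 (SE 0.380, adjusted p = 7.24e-13). Cpz, a carboxypeptidase, had 3.04 (SE 0.382, adjusted p = 1.98e-12) and Foxi3, a forkhead factor of the ectoderm, 2.86 (SE 0.266, adjusted p = 5.33e-20). These 3 were also higher in tChIP-Seq in the Rosa line, by 2.16, 2.29 and 2.89 on the log2 scale, and rested on 2 to 11 reads in each Camk2a single ChIP-Seq library. The lowest were Agmo at -3.42 (SE 0.508, adjusted p = 1.5e-09), Cdh19, a cadherin of the glial lineage, at -2.94 (SE 0.502, adjusted p = 1.2e-07), and Selenbp1 at -2.78 (SE 0.567, adjusted p = 8.56e-06). Cdh19 had 5.42, 5.73 and 2.99 CPM in Camk2a single ChIP-Seq and 0.656, 0.722 and 0.368 in Camk2a tChIP-Seq. Of the 239 members lower in Camk2a than in Rosa tChIP-Seq, 198 were higher after tChIP in Rosa. In Camk2a, 88 of the 239 were lower after tChIP and 16 higher. Over all members, 62.6% were higher and 1.11% lower after tChIP in Rosa, and 37.1% and 12.7% in Camk2a. Of the 56 members higher in Camk2a tChIP-Seq, 18 were higher and 1 lower after tChIP in Rosa. In Camk2a, 52 of the 56 were higher and 0 lower after tChIP. These overlaps partly follow from the design: the 2 comparisons of assays share no library, while each shares a tChIP-Seq group with the comparison of lines.

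The difference between the lines was itself different in the 2 assays at 261 members. In the interaction of line and assay over the 12 libraries, 245 members had a lower and 16 a higher difference after tChIP, or 27.2% and 1.78%, against 13.2% and 13.7% of all regions, and the median was -0.48. Among the 82 wider promoter regions with totals between the quartiles of the members, 46.3% were lower and 7.32% higher, with a median of -0.66. In that range members had 33.4% lower, 1.77% higher and a median of -0.56. All regions there had 21.1% lower, 3.08% higher and a median of -0.35. Narrow regions without a TSS had 11.3% lower, 2.06% higher and a median of -0.20. The lowest members were Agmo at -3.69 (SE 0.621, adjusted p = 7.74e-08), Selenbp1 at -3.63 (SE 0.653, adjusted p = 5.42e-07) and Acot11 at -3.61 (SE 0.437, adjusted p = 1.05e-13). The highest were 2610042L04Rik at 1.80, which has 4 near-identical copies and uncertain counts, Ap1m2 at 1.75 (SE 0.453, adjusted p = 0.000692) and Zbtb8b at 1.44 (SE 0.209, adjusted p = 4.86e-10). The number of higher members was 10 without Rosa tChIP replicate 3.

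Of 10 lists of cell type genes with 532 genes in all, 43 members carried a listed gene, of which 22 were lower and 1 higher in Camk2a tChIP-Seq, where 26.5% of all members were lower and 6.22% higher (14.6% and 17.0% of all regions). On every list, more wider regions than members carried a listed gene. Of all 11640 wider promoter regions, 19.3% were higher and 14.7% lower in Camk2a tChIP-Seq. Among wider regions of excitatory cortical neuron genes, 30 of 41 were higher in Camk2a tChIP-Seq and 1 lower, with a median log2FC of 1.02. Of those of endothelial genes, 26 of 31 were lower and 2 higher, with a median of -1.94. Of the wider regions of astrocyte genes 22 of 28 were lower and 3 higher, and of oligodendrocyte genes 23 of 35 were lower and 2 higher. Of those of mural cells, fibroblasts and meninges 10 of 15 were lower and 1 higher, and of blood cell genes 2 of 2 were lower. The other lists were mixed. Wider regions of interneuron genes had 10 of 20 lower, 5 higher and a median of -0.47. Those of microglia and macrophage genes had 4 of 12 lower, 2 higher and a median of -0.10. Neurons outside the cortex had 3 of 10 lower and 4 higher, and germline genes had 1 of 9 lower and 0 higher. The lists were written with earlier results of these data known, so their counts are not an independent check of the labelled cells. The counts were not tested against other lists. Whether the lower calls of members follow the share of such cells in the tagged chromatin was not tested.

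Microglia and macrophage genes held 7 members, of which 4 were lower, 0 higher and 3 not called, with a median of -0.80. Tlr4, the receptor of lipopolysaccharide, had 1.64, 1.08 and 1.84 CPM in Camk2a tChIP-Seq and 10.4, 8.35 and 14.4 in Rosa tChIP-Seq, with a log2FC of -2.79 (SE 0.381, adjusted p = 1.74e-09). Cd40, a receptor of the tumour necrosis factor family, had -1.70 (SE 0.476, adjusted p = 0.00237), Olfml3 -1.16 (SE 0.352, adjusted p = 0.00512), and Tlr2, a receptor of bacterial lipopeptides, -0.80 (SE 0.216, adjusted p = 0.00148). Among those not called, Alox5ap of leukotriene synthesis had 0.62 (adjusted p = 0.0703) and Laptm5 -0.57 (adjusted p = 0.502). The list kept between 1 and 4 lower calls when 1 library was left out: Cd40, Tlr2 and Olfml3 were lost without Rosa tChIP replicate 2 (adjusted p = 0.0294, 0.0348 and 0.0305) and without Camk2a tChIP replicate 2 (0.0235, 0.0203 and 0.0149), and Olfml3 also without Rosa tChIP replicate 1 (0.0179) or Camk2a tChIP replicate 3 (0.0168). The DESeq2 Wald test called 1. Gata3 was the 1 member on the list of blood cells and was lower.

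Endothelial genes held 5 members, of which 4 were lower, 3 by the DESeq2 Wald test and 2 with filterByExpr, a filter on low counts that left Tie1 and Notch4 out. Tie1, a receptor tyrosine kinase of vessels, had 1.31, 1.08 and 1.10 CPM in Camk2a tChIP-Seq against 4.17, 5.96 and 8.53 in Rosa tChIP-Seq, a log2FC of -2.31 (SE 0.476, adjusted p = 3.26e-05), and its single ChIP-Seq values of 4.92, 4.43 and 3.76 in Rosa and 4.18, 4.53 and 5.23 in Camk2a overlapped. Mmrn2, an endothelial matrix protein, had -2.56 (SE 0.355, adjusted p = 2.88e-09), Icam1, a leukocyte adhesion receptor, -1.64 (SE 0.315, adjusted p = 9.3e-06) and Notch4 -1.89 (SE 0.473, adjusted p = 0.000631). Notch4 lost the call without Rosa tChIP replicate 1 (-1.57, adjusted p = 0.0218) or Camk2a tChIP replicate 3 (-1.36, adjusted p = 0.0113), a library with no read there, and had -2.70 without Camk2a tChIP replicate 1. Abcb1a, the P-glycoprotein of the blood-brain barrier, had 22.0, 19.5 and 16.6 CPM in Camk2a tChIP-Seq and 22.4, 18.5 and 10.5 in Rosa tChIP-Seq, which overlapped, with a log2FC of 0.15 (adjusted p = 0.578).

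Genes of mural cells, fibroblasts and meninges held 6 members, of which 5 were lower, 3 by the DESeq2 Wald test. Col1a2, a chain of type I collagen, had 1.31, 1.80 and 1.84 CPM in Camk2a tChIP-Seq and 8.87, 7.16 and 5.25 in Rosa tChIP-Seq, a log2FC of -2.10 (SE 0.418, adjusted p = 1.85e-05). Anpep, an aminopeptidase of pericytes, had -1.96 (SE 0.337, adjusted p = 9.15e-07), Aebp1 -1.76 (SE 0.265, adjusted p = 3.27e-08), Fbln1, a matrix fibulin, -0.58 (SE 0.184, adjusted p = 0.00689) and Slc6a13, a GABA transporter of the meninges, -2.30 (SE 0.732, adjusted p = 0.0077). Slc6a13 was also lower in Camk2a single ChIP-Seq, without overlap, at -1.12 (adjusted p = 0.0864, not called). Its interaction of line and assay was -1.25 (adjusted p = 0.291). In tChIP-Seq, Slc6a13 rested on 1, 2 and 1 reads in Camk2a and lost the call without any of the 6 libraries but Rosa tChIP replicate 3, with adjusted p up to 0.104 without Rosa tChIP replicate 1. Fbln1 lost it without replicate 1 or 2 of Rosa tChIP (adjusted p = 0.0713 and 0.0155) or replicate 2 or 3 of Camk2a tChIP (0.0568 and 0.0137). The Col1a1 region of 130 bp, for the other chain, had 58 reads in all and was not called, at -0.18 (adjusted p = 0.824).

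Astrocyte genes held 5 members, of which 3 were lower, 2 by the DESeq2 Wald test: Slc25a18, a mitochondrial glutamate carrier, at -1.91 (SE 0.374, adjusted p = 1.32e-05), Entpd2, which hydrolyses extracellular ATP, at -1.05 (SE 0.232, adjusted p = 0.000103), and Atp13a4 at -1.05 (SE 0.306, adjusted p = 0.00346). Atp13a4 lost the call without Rosa tChIP replicate 2 (adjusted p = 0.0243), Rosa tChIP replicate 3 (0.0249) or Camk2a tChIP replicate 2 (0.0123). Bmpr1b, a receptor of bone morphogenetic proteins, and Agxt2l1 had -0.36 (adjusted p = 0.378) and -0.83 (adjusted p = 0.107). Of the 2 members on the oligodendrocyte list, Cdh19 was lower at -2.55 (SE 0.630, adjusted p = 0.000526), in a region that filterByExpr left out, a call lost without Rosa tChIP replicate 1 (adjusted p = 0.0224), and Carns1, the carnosine synthase, had 0.23 (adjusted p = 0.678).

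Neuronal genes among the members showed no common direction. On the list of excitatory cortical neurons, Nxph4, a neurexin ligand, was lower at -0.89 (SE 0.218, adjusted p = 0.000478), with 10.0 ± 2.84 CPM (SD, n = 3) in Camk2a tChIP-Seq and 18.8 ± 0.995 in Rosa tChIP-Seq. Ngb, the neuroglobin gene, had 0.64 (adjusted p = 0.0391). Of 5 members with genes of cortical interneurons, Nxph2, another neurexin ligand, was higher at 0.74 (SE 0.229, adjusted p = 0.00648), a call lost by the DESeq2 Wald test (adjusted p = 0.0539) and without Rosa tChIP replicate 2 (adjusted p = 0.0667) or 3 (0.0307) or Camk2a tChIP replicate 1 (0.0287) or 3 (0.0308). Nxph2 was also higher in Camk2a single ChIP-Seq, without overlap, at 0.64 (adjusted p = 0.0202, not called). Its interaction of line and assay was 0.08 (adjusted p = 0.868). In tChIP-Seq, Sp8 had -0.42 (adjusted p = 0.135), Chodl 0.57 (adjusted p = 0.0385) and Pvalb, the parvalbumin gene, -0.09 (adjusted p = 0.82). Of 8 members with genes of neurons outside the cortex, 3 were lower, 2 by the DESeq2 Wald test. Pitx3, a factor of midbrain dopamine neurons, had 33.4, 35.8 and 33.5 CPM in Rosa tChIP-Seq and 8.53, 13.3 and 11.1 in Camk2a tChIP-Seq, a log2FC of -1.64 (SE 0.181, adjusted p = 1.1e-12). Pou4f1, a factor of sensory neurons, had -1.44 (SE 0.229, adjusted p = 1.44e-07), and Barhl2 -0.75 (SE 0.232, adjusted p = 0.0063), a call lost without replicate 1 or 2 of either line (adjusted p up to 0.0608, without Rosa tChIP replicate 2). Drd2, a dopamine receptor, Isl1 and Slc6a3, the dopamine transporter, had 0.17 (adjusted p = 0.583), -0.25 (adjusted p = 0.471) and -0.09 (adjusted p = 0.837). All 8 were higher after tChIP than after single ChIP in the Rosa line, and 5 were in the Camk2a line. Neither germline member was called: Hspa1l had -0.46 (adjusted p = 0.199) and Tdrd6 0.03 (adjusted p = 0.947).

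**Figure D4:**
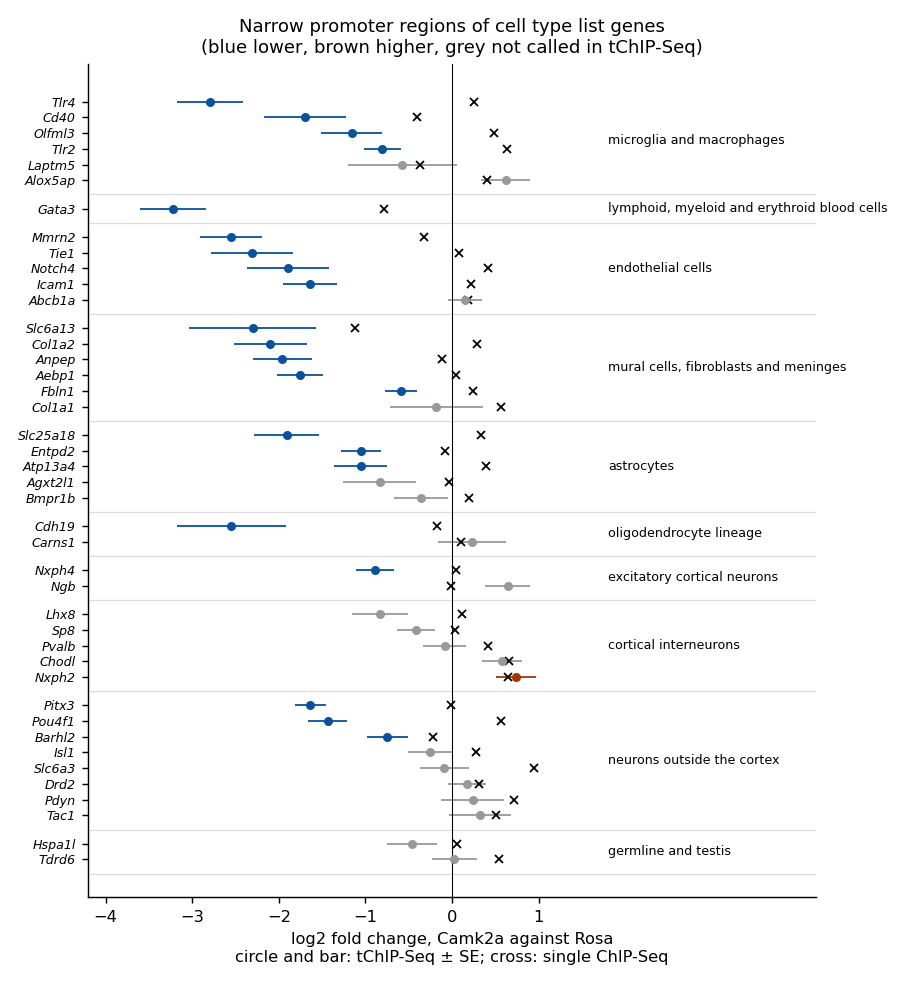
Log2FC of Camk2a over Rosa (x axis) for members on a cell type list (y axis, grouped by list), with 1 uncalled member not shown. Circles with bars give tChIP-Seq ± SE and crosses single ChIP-Seq. 22 circles are called lower and 1 higher, and of the crosses only that of Tlr2 is a call at the threshold (log2FC 0.63).

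By gene family, 16 members were solute carrier genes, of which 5 were lower and 1 higher in Camk2a tChIP-Seq, near the shares of all members (26.5% and 6.22%), with a median of -0.55 against 0.03 for 226 wider solute carrier regions. Slc2a10, a sugar transporter, had -2.98 (adjusted p = 6.37e-13), Slc22a8, an organic anion transporter of the blood-brain barrier and choroid plexus, -2.29 (adjusted p = 5.98e-08), and Slc5a8, a monocarboxylate transporter, 1.05 (adjusted p = 0.00305). Of 20 zinc finger (Zfp) members, 2 were lower and 0 higher, with a median of -0.03. Of 9 transmembrane protein (Tmem) members 4 were lower and 0 higher, and of 3 potassium channel members 1, Kcnq1, was lower at -0.95 (adjusted p = 8.84e-05), while 51 of 67 wider potassium channel regions were higher and 3 lower. Over all regions 14.6% were lower and 17.0% higher, and over all wider promoter regions 14.7% and 19.3%. No region of an orphan G protein-coupled receptor gene among 3 members was called, and no member was at an olfactory receptor (Olfr) gene.

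For 155 members the same gene had another region of 1000 bp or wider, at a median distance of 28330 bp. In tChIP-Seq 41 of these narrow regions, or 26.5%, were lower and 8 higher in Camk2a H2B-FLAG, the same lower share as among all members, while 29 of their wider partners were lower and 57 higher. The median log2FC was -0.23 for the narrow and 0.12 for the wider regions. In 10 pairs, at 9 genes, the narrow region was lower and the wider one higher, in 1 pair the reverse held, in 8 both were lower and in 4 both higher. With 1 library left out, the first count was 8 to 10 and the second 0 to 2. The comparison of the 2 regions of a gene was not tested as such. With 41 narrow regions lower and 57 wider ones higher among 155 pairs, opposite calls also arise where the 2 regions are unrelated. The count of 10 therefore shows no relation between the regions by itself.

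Grin1, the obligatory subunit of NMDA receptors, had a wider region of 1925 bp with CPM of 95.8, 88.0 and 96.9 in Camk2a tChIP-Seq and 37.0, 41.8 and 30.8 in Rosa tChIP-Seq. Its narrow region of 657 bp (chr2:25160403-25161059), 11884 bp away, had 5.58, 3.97 and 3.68 in Camk2a tChIP-Seq and 8.87, 12.5 and 13.8 in Rosa tChIP-Seq. The log2FC were 1.35 (SE 0.109, adjusted p = 9.39e-19) for the wider and -1.36 (SE 0.296, adjusted p = 8.71e-05) for the narrow region. Iqsec1, an exchange factor of Arf GTPases at synapses, had 130, 134 and 152 CPM in Camk2a tChIP-Seq against 55.3, 59.6 and 59.7 in Rosa tChIP-Seq at the wider region, and 1.97, 0.722 and 1.10 against 9.91, 11.9 and 5.91 at the narrow one (chr6:90713467-90714093). The log2FC were 1.26 (SE 0.0888, adjusted p = 1.67e-21) and -2.81 (SE 0.418, adjusted p = 2.31e-08). In Adam11, a neuronal adhesion gene, the wider region had 0.90 (SE 0.0818, adjusted p = 3.64e-16) and the narrow region (chr11:102635373-102636363) -1.92 (SE 0.200, adjusted p = 1.28e-13). The largest contrast was at the region shared by Zbtb38, which encodes a reader of methylated DNA, and E030011O05Rik (chr9:96652579-96653172), at -2.75 (SE 0.480, adjusted p = 1.22e-06) against 1.52 (SE 0.0903, adjusted p = 1.39e-25). The narrow region of B3galt5, a galactosyltransferase, had 1.05 (SE 0.352, adjusted p = 0.0114) against -1.91 (SE 0.372, adjusted p = 1.19e-05) at its wider region.

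The remaining pairs with opposite calls are given although they were chosen after their values were seen. Rap1gap, which switches off Rap GTPases, had -0.94 at the narrow and 1.13 at the wider region, and Ptpre, a tyrosine phosphatase, -2.01 and 0.65. Pde4a, a cyclic AMP phosphodiesterase, had 2 narrow regions, at -1.83 and -0.97, and a wider region at 0.41. Eml1 had -1.51 and 0.32, and Atp9a -1.65 and 0.39. Myo5b, a myosin motor, was the reverse, at 1.03 and -0.64. Without Rosa tChIP replicate 1, the narrow regions of Atp9a (adjusted p = 0.0505), Myo5b (0.0808) and Pde4a at -0.97 (0.0255) lost the call, as did Atp9a without Camk2a tChIP replicate 1 (0.046) and Myo5b without Camk2a tChIP replicate 3 (0.0112).

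**Figure D5:**
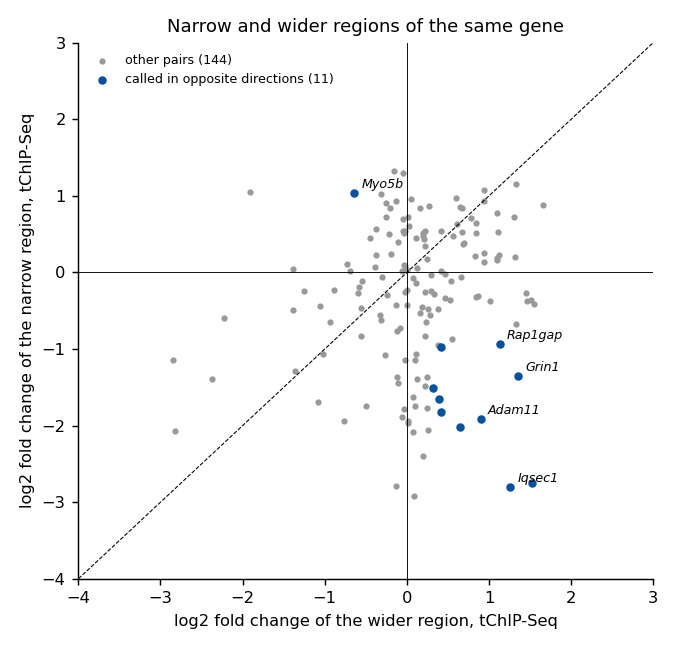
Log2FC of Camk2a over Rosa in tChIP-Seq at the wider region (x axis) and at the narrow region (y axis) of the same gene, for 155 pairs, with the line of equal values dashed. Blue points are the 11 pairs called in opposite directions. 10 of them lie at the lower right, with a higher wider region and a lower narrow one, and Myo5b lies at the upper left.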

How the data were processed

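H3K4me3 single ChIP-Seq and tChIP-Seq libraries of 2 lines were analysed, and 12 input and anti-FLAG libraries were not used here. The authors trimmed single-end reads with FASTX Toolkit, removed reads from repeats with Bowtie2 2.1.0, mapped the rest to mm9 with Bowtie 1.0.0, used samtools to drop duplicates and MACS to call peaks, kept peaks found in the triplicates, and counted reads per region with bedtools 2.17.0 (versions from the submitters' processing notes). The deposited values are whole-number counts per region, without normalization; how peaks were merged into 1 list of 17993 regions is not given in the sources used here. Removal of repeat reads lowers counts in repetitive promoters.

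Members were found with GENCODE M1 on mm9, which matches the chromosomes of the deposited regions. They, the gene lists and the tests were chosen with earlier results of these data known. edgeR 4.0.16 in R 4.3.3 (TMM, glmQLFit and glmQLFTest) was fitted to the counts of all regions, without a filter, on the 6 libraries of each comparison of 2 groups and on 12 for the interaction, with Benjamini-Hochberg adjustment over all regions, and regions were called at an adjusted p under 0.01. SE is the size of the log2 fold change over the square root of F. Labels do not say whether lysates were prepared on separate days, so p-values measure the spread between these libraries.

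The members named were the 10 highest and 10 lowest called members without overlap between the groups in tChIP-Seq between the lines, 3 each way in the other comparisons, list members (called, and up to 3 not called), of which 1 is not reported here, those with the 5 highest and 5 lowest totals, 3 on each side of the width limit, and the 5 largest contrasts with a called wider region. The fits were tested on simulated counts at the observed depths. Near-identical sequence was searched with minimap2 2.31. Alternatives were DESeq2 size factors, library totals, the DESeq2 1.42.0 Wald test, another form of the quasi-likelihood method, filterByExpr, a threshold of 0.05, a replicate block, all 12 libraries in a single fit, thinning, other width limits and leaving out each library. scipy 1.17.1, pandas 2.3.3, numpy 2.4.6 and matplotlib 3.10.9 served for other values and figures.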

Additional observations from a re-analysis of the deposited data

Results flagged for a closer look

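The difference between the lines depended on the assay, by the interaction term of the count test, with a lower value after tChIP at 245 members and a higher one at 16. Among the named members this held for Agmo (-3.69), Selenbp1 (-3.63), Acot11 (-3.61), 2610042L04Rik (1.80, with near-identical copies), Ap1m2 (1.75) and Zbtb8b (1.44), all as differences of log2 fold changes. Lower values were also called at 46.3% of the 82 wider promoter regions with totals between the quartiles of the members. In that range 33.4% of members were lower.

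Among members on the cell type lists, the interaction was called for Tlr4 (-3.07), Olfml3 (-1.66) and Tlr2 (-1.44) of microglia, and for Gata3 (-2.47) of blood cells. It was called for Tie1 (-2.42), Notch4 (-2.33), Mmrn2 (-2.26) and Icam1 (-1.87) of endothelium. It was also called for Col1a2 (-2.41), Anpep (-1.86), Aebp1 (-1.81) and Fbln1 (-0.83) of mural cells, fibroblasts and meninges. Of the glial lists, Cdh19 (-2.43), Slc25a18 (-2.27), Atp13a4 (-1.46) and Entpd2 (-0.98) were called. Of the neuronal lists, Pou4f1 (-2.01), Pitx3 (-1.64) and Nxph4 (-0.94) were called. Each of these values is a call at an adjusted p under 0.01 over all 17993 regions by edgeR.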

How the results depend on the processing

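Counts of called members changed with the test, the threshold, thinning and, in single ChIP-Seq, with single libraries. The DESeq2 Wald test gave 24 higher in Camk2a tChIP-Seq in place of 56, 0 higher in Camk2a single ChIP-Seq in place of 15, 49 lower in Camk2a tChIP-Seq against single ChIP-Seq in place of 114, and 8 higher in the interaction in place of 16. A threshold of 0.05 gave 98 higher in Camk2a tChIP-Seq, 57 higher in Camk2a single ChIP-Seq, 18 lower in Rosa tChIP-Seq against single ChIP-Seq in place of 10, and 28 higher in the interaction. Thinning left 0 members called in single ChIP-Seq between the lines. With 1 library left out, the ranges were 39 to 48 higher and 198 to 231 lower between the lines in tChIP-Seq, 6 to 11 higher and 0 lower in single ChIP-Seq, 474 to 548 higher and 7 to 12 lower between the assays in Rosa, 287 to 300 and 88 to 107 in Camk2a, and 10 to 15 and 212 to 236 in the interaction. The other settings for these counts, with DESeq2 size factors, library totals, the other quasi-likelihood form, filterByExpr, both together (chosen after seeing the data) or all 12 libraries, stayed within 1.5 times. Library totals moved the median of all regions by at most 0.10 on the log2 scale and gave 42 higher and 262 lower between the lines in tChIP-Seq.

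With a replicate block, 51 members were higher and 231 lower between the lines in tChIP-Seq, and 15 and 0, 563 and 10, 331 and 111, and 16 and 244 in the other comparisons. Over the members, deviations of same-numbered single ChIP and tChIP libraries of a line had correlations between -0.02 and 0.04. Those of same-numbered libraries of the 2 lines lay between -0.08 and 0.09. With counts this low, such values cannot show whether a number marks a shared lysate. The main tests did not take the numbers as pairs. The share of members called between the lines in tChIP-Seq was 32.7%, and 22.2% with a width limit of 500 bp, 30.3% with 1500 bp and 32.9% with start sites of protein-coding transcripts alone. The difference of the assays in the share of counts was 0.0219 percentage points with a limit of 500 bp and 0.931 with 1500 bp (exact permutation p = 0.005 for each), and 0.344 to 0.352 with 1 library left out. Taking the libraries of a number as 1 lysate (chosen after seeing the data) gave p = 0.0312 in the exact test. The comparisons of 3 libraries with 3 could not pass 0.05 under any setting and say nothing about stability.

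Reversals of direction occurred at uncalled values of tChIP-Seq between the lines. With 1 library left out, the log2 fold changes ranged from -0.57 to 0.21 for Chrnb4, -0.29 to 0.17 for Fam110c, -0.076 to 0.41 for Abcb1a, -0.73 to 0.60 for Col1a1, -0.58 to 0.10 for Bmpr1b, -0.21 to 0.063 for Pvalb, -0.044 to 0.46 for Drd2, -0.48 to 0.018 for Isl1, -0.18 to 0.27 for Tdrd6, -0.64 to 0.96 for Gm3248, -0.16 to 0.085 for Sgta and -0.14 to 0.11 for Cog6. Library totals gave Tdrd6 -0.043 and Gm3248 -0.063, and Gm3248 had -0.026 by DESeq2 and -0.0009 with all 12 libraries. Of the alternative values of the 96 named regions, 1622 kept direction and call, 97 lost the call, 7 gained it and 24 reversed. The cause of lost calls was not tested.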

Other observations

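These members were chosen after their values were seen and are given as values only, with no group implied. Of 8 Trim members, which encode tripartite motif proteins, 5 were lower in Camk2a tChIP-Seq and 0 higher, where 26.5% of all members and 14.6% of all regions were lower: Trim12c at -2.72 (adjusted p = 1.36e-09), Trim6 at -2.31 (adjusted p = 6.32e-08), Trim34a at -2.16 (adjusted p = 1.19e-09), Trim12a at -1.80 (adjusted p = 0.000616) and Trim45 at -1.15 (adjusted p = 0.000203). Trim44, Trim58 and Trim15 had 0.70 (adjusted p = 0.208), 0.76 (adjusted p = 0.0262) and 0.32 (adjusted p = 0.491). Trim6, Trim12a, Trim12c and Trim34a belong to a tandem family of similar genes, and their counts may share reads.

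Other called members that were lower were Oasl1 at -2.83 (adjusted p = 4.64e-08), Ifi44 at -2.06 (adjusted p = 0.00169), Gbp2 at -1.92 (adjusted p = 6.95e-07), Cenpf at -0.88 (adjusted p = 0.00123) and Cdk1 at -0.92 (adjusted p = 4.6e-05). Other called members that were higher were Qrfpr at 1.36 (adjusted p = 1.46e-05), Scnn1g, which encodes the gamma subunit of the epithelial sodium channel, at 1.28 (adjusted p = 3.5e-06), Drd5, a dopamine receptor, at 1.15 (adjusted p = 6.79e-05), and Cftr, a chloride channel, at 0.96 (adjusted p = 5.05e-06).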
